A study of Rattus norvegicus with 2 samples.

Results

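Among cells sorted as microglia from the rat hippocampus, 86 of 12243 kept cells carried S100a8 and S100a9 transcripts with little complement C1q, and these cells are described here. A kept cell had at least 200 detected genes and at most 20% of its unique molecular identifiers (UMIs, which mark single captured transcripts) from mitochondrially encoded genes. A kept cell was a member when S100a8 and S100a9 together had at least 20 UMIs and C1qa, C1qb and C1qc together made up under 0.8% of its UMIs. The dexamethasone library came from the hippocampus of 7 pooled male embryos on gestational day 20 whose exposure before birth was to the synthetic glucocorticoid dexamethasone. The control library came from 7 pooled male embryos of the same day without that exposure. Strain, dose and times of dosing are not given in the labels. The title of the study names the maturation of microglia as its question. Each group is 1 library, so no test was made, and exposure, pool and any batch of capture or sequencing cannot be told apart. Ranges in parentheses are exact 95% intervals and cover counting error only.

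The dexamethasone library held 42611920 UMIs in 4328 barcodes, of which 4199 cells were kept, and the control library held 69940778 UMIs in 8342 barcodes, of which 8044 were kept. The libraries shared 5 barcodes, none of them a member. Mitochondrial transcripts made up 2.23% of UMIs in dexamethasone members and 3.72% in control members, against 2.98% and 5.74% in all other kept cells. Median depth was 10361.5 UMIs in dexamethasone members and 9308.5 UMIs in control members. No doublet caller was run here.

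S100A8 and S100A9 are calcium- and zinc-binding proteins that pair as calprotectin, a main cytosolic protein of neutrophils that monocytes also carry. Neutrophils fill their granules in sequence as they mature: primary granules with myeloperoxidase and serine proteases, then specific granules with cathelicidin (Camp), lipocalin 2 and collagenase, then gelatinase granules with Mmp9. In rats, as in humans, neutrophils also make alpha-defensins. Monocytes share S100a8 and S100a9 but make the matrix proteins fibronectin (Fn1) and versican (Vcan). Neither cell type is a resident of brain tissue proper, whose own macrophages, the microglia, are rich in C1q.

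The start regions of 6 genes are shown because their transcripts mark the members or the kinds of cell described below. S100a9 was carried by every member, Camp and Fcnb divide the members, and Np4, Ngp and Mmp8 divide the cells rich in Camp. The sequences are RefSeq's for the GRCr8 assembly and run 5′ to 3′ from 250 bases before to 50 bases after the start of the gene. Capitals mark each match on either strand to TTGCNNAA, letters like those bound by C/EBP transcription factors, which act in granulocyte and monocyte development; no matches overlapped.
S100a9 (chr2:178490573-178490872, minus strand): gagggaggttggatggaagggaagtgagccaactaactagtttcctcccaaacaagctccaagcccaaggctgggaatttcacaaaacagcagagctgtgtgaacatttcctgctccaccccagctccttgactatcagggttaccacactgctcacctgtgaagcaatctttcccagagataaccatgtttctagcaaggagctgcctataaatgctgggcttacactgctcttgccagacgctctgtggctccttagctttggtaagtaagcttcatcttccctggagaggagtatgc
Camp (chr8:118721949-118722248, minus strand): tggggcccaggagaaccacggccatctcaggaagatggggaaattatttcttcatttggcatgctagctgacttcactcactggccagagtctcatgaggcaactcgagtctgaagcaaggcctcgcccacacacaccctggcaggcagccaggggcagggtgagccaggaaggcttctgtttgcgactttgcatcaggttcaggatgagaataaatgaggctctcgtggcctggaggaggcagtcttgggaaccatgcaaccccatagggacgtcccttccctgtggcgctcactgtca
Fcnb (chr3:31800139-31800438, minus strand): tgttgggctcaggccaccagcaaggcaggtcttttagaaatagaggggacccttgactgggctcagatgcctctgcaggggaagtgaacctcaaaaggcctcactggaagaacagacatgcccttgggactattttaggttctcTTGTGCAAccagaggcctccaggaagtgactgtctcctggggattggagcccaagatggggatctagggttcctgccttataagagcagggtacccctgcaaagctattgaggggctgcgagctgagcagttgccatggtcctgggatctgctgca
Np4 (chr16:77199593-77199892, minus strand): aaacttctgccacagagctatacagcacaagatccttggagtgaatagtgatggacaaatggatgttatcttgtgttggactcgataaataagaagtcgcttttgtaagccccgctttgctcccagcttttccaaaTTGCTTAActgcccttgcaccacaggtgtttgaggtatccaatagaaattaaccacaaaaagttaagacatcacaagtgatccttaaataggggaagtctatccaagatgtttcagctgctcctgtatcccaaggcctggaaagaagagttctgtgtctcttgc
Ngp (chr8:119272355-119272654, plus strand): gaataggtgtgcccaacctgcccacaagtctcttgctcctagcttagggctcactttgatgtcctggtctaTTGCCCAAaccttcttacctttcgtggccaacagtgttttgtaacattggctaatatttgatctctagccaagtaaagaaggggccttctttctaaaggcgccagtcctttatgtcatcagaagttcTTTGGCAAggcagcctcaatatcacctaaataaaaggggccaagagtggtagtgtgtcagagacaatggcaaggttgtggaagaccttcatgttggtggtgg
Mmp8 (chr8:13008640-13008939, plus strand): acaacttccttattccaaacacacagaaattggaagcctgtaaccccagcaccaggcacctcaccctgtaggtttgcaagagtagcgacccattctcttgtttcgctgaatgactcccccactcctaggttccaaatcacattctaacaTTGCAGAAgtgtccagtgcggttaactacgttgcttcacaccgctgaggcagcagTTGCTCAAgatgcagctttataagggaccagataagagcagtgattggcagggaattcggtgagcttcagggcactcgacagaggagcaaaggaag

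The Ngp and Mmp8 windows held 2 matches each, Np4 and Fcnb held 1 each, and S100a9 and Camp held none. Of all 33469 promoter windows in the table, 10.6% held at least 1 match. Counted by gene, the motif stood in a window of 5 of the 11 specific granule genes found, 3 of 4 defensin genes, 6 of 21 mature neutrophil genes and 4 of 23 monocyte genes. A gene counted if any of its windows held a match, so these counts cannot be set directly against the share of all windows. A match is a run of letters and not a binding site.

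Members made up 1.19% of kept cells in the dexamethasone library (50 of 4199, 0.885 to 1.57%), against 0.448% of control kept cells (36 of 8044, 0.314 to 0.619%). The share was higher by 0.743 percentage points in the dexamethasone library (0.393 to 1.14). These shares describe a sort for microglia, not the tissue, and S100a8 and S100a9 set them. In each library a few cells lay close to the limits. With 20 to 39 S100a8 and S100a9 UMIs, just inside, there were 4 dexamethasone and 7 control cells, and with 10 to 19, just outside, 5 and 7. Just under the C1q limit, at 0.4 to 0.8%, lay 1 dexamethasone and 3 control members. At or over it lay 6 dexamethasone and 2 control cells that otherwise met the rule, among them 1 dexamethasone cell with 4839 S100a8 and S100a9 UMIs and 349 Camp UMIs.

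The members were first divided by the larger of 2 UMI sums, Camp plus Fcnb against RT1-Db1, Cd74 and Fn1, with at least 5 UMIs in the larger. The Camp/Fcnb side held 31 of 50 dexamethasone members (62.0%, 47.2 to 75.3%) and 26 of 36 control members (72.2%, 54.8 to 85.8%). The other side held 17 and 7, and 2 and 3 cells fell on neither. By its rule the leading genes of the Camp/Fcnb side were Stfa3, Olfm4, Pglyrp1, Ifitm1, Cd177 and Retn, each found in 15 to 18 of its 57 cells, so a minority of the side carried them. Those of the other side, N4bp2l1, Epha4 and Slpi first, were at most 6.15-fold higher than on the Camp/Fcnb side. This division did not separate kinds of cell. In 58 members both sums were at least 10, since Fcnb, which encodes the lectin ficolin B, was found in the cells with Fn1 and, apart from 2 UMIs, not in those rich in Camp. RT1-Db1 and Cd74, of antigen presentation by MHC class II, had 2 and 3 UMIs over all members and never more than 1 in a cell, so that the second sum was in effect Fn1.

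A second division, set after the values were seen, followed gaps in the counts. The 16 Camp-rich cells had at least 23 Camp UMIs and no other member had more than 8. The 65 Fn1/Fcnb cells had at least 11 Fn1 plus Fcnb UMIs, and no remaining cell had more than 2. Of these 65, 61 had at least 5 UMIs of both Fn1 and Fcnb, while the 16 Camp-rich cells together held 2 Fcnb and 8 Fn1 UMIs. The sums placed all 16 Camp-rich cells on the Camp/Fcnb side, but 41 of the Fn1/Fcnb cells fell there too and 24 on the other side. The last 5 cells, with little of either, are called Camp-poor Fn1-poor.

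**Figure D1:**
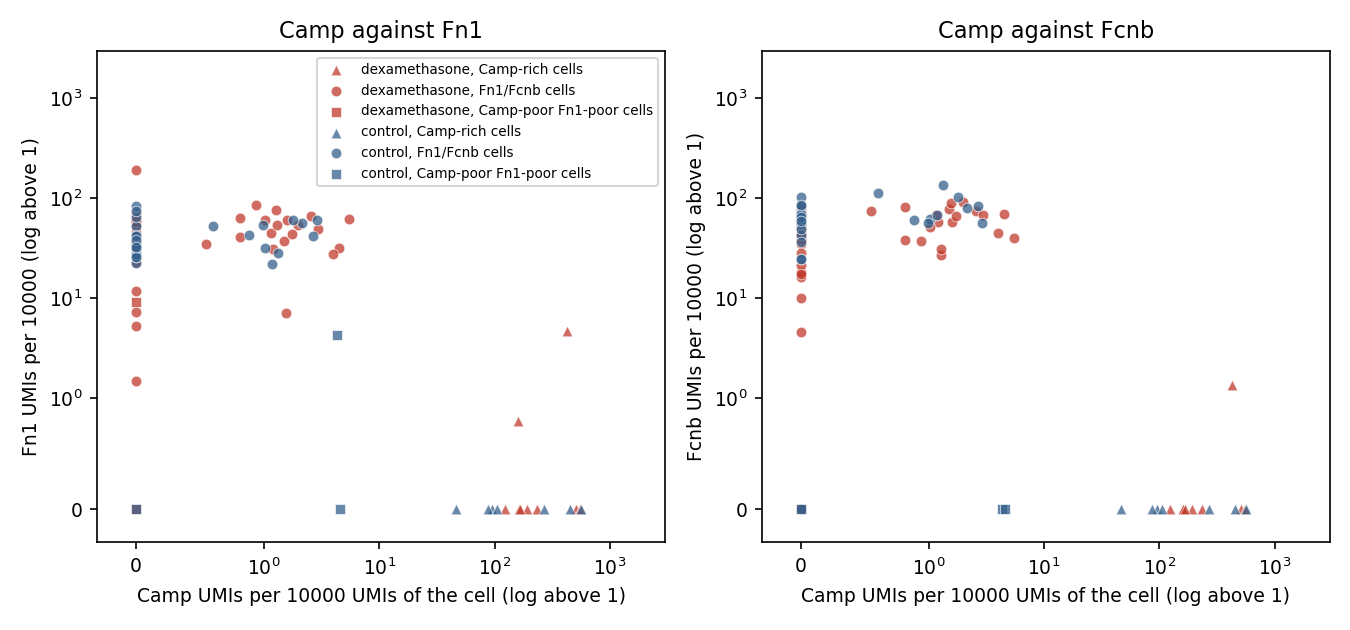
Camp UMIs (x) against Fn1 UMIs (left) and Fcnb UMIs (right) in each of the 86 members, all per 10000 UMIs of the cell on axes that are logarithmic above 1 and linear below; colour gives the library and shape the kind of cell. Camp-rich cells lie along the bottom right, and 65 cells with Fn1 and Fcnb lie at the top left, with no member high in Camp and in Fn1 or Fcnb together.

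Camp-rich cells made up 9 of 50 dexamethasone members and 7 of 36 control members, or 18% (8.58 to 31.4%) and 19.4% (8.19 to 36%). Fn1/Fcnb cells made up 39 and 26, or 78.0% (64.0 to 88.5%) and 72.2% (54.8 to 85.8%). The make-up of the members thus differed between the libraries by less than these intervals. Of all kept cells, Camp-rich cells were 0.214% (0.0981 to 0.406%) of dexamethasone cells and 0.0870% (0.0350 to 0.179%) of control cells, and Fn1/Fcnb cells 0.929% (0.661 to 1.27%) and 0.323% (0.211 to 0.473%).

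The 16 Camp-rich cells carried the genes of neutrophil specific granules. Their leading genes over Fn1/Fcnb cells, in the equal-weight mean of both libraries' CPM (a gene's UMIs per 1000000 UMIs summed over the cells), were the stefin A protease inhibitors Stfa2, Stfa3 and Stfa2l1, Pglyrp1 (a peptidoglycan-binding granule protein), Ngp (neutrophilic granule protein), Olfm4 (olfactomedin 4 of specific granules), the alpha-defensins RatNP-3b and Defa5, Cd177 (a neutrophil surface glycoprotein), Retnlg, Camp and Lcn2. Of 2170 genes with at least 50 UMIs, 107 were at least 2-fold higher in Camp-rich than in Fn1/Fcnb cells, or 4.93%, and 46.0% were at least 2-fold lower. Both kinds were chosen on these cells, so these values describe the division. Pglyrp1 and Cd177 were carried by all 16 Camp-rich cells and by none of the 65 Fn1/Fcnb cells. Mpo, of primary granules, and Ltf, the lactoferrin of specific granules, had 0 UMIs in all members, and Elane had 2 in 1 cell. Vcan, Ahnak and S100a4 had 0 UMIs in all 16.

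The 65 Fn1/Fcnb cells carried genes usual in monocytes. Their leading genes over Camp-rich cells were S100a4, Vcan, Fcnb, Ahnak (a large scaffold protein), Ly6e, Mnda, Mal, Rnase2, Slfn5, Scimp, Samhd1 and Irf5. The summed monocyte list, which holds Fn1, Vcan, Lyz2 and Csf1r, stood at 59218 CPM in the dexamethasone and 59389 CPM in the control Fn1/Fcnb cells, at 16991 and 9489 CPM in Camp-rich cells and at 6050 and 5643 CPM in all other kept cells. Lyz2 alone made up most of this sum in both kinds of cell, at 14798.5 CPM in the dexamethasone Camp-rich cells. Every Camp-rich cell carried Lyz2, so the sum mainly follows 1 gene that both kinds share. Csf1r, the receptor for the growth factor of macrophages, had a UMI in 35 of 39 and 24 of 26 Fn1/Fcnb cells. F13a1 was found in few Fn1/Fcnb cells, 8 of 39 dexamethasone and 3 of 26 control cells. In Camp-rich cells it had a UMI in 5 of 9 dexamethasone and 0 of 7 control cells. Fcnb is listed here with early neutrophil genes. That list stood at 7154 and 8914 CPM in Fn1/Fcnb cells, and Camp had 45 and 17 UMIs over all of them. Most of the list's sum was Fcnb, which helped to define these cells, at 5639 and 7445 CPM. In Camp-rich cells with C1q under 0.4% the list stood at 2707 and 2401 CPM, with Fcnb at 16.6 and 0 CPM. The label of granulocyte and monocyte-like cells therefore holds 2 marker patterns, in different cells.

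The 5 Camp-poor Fn1-poor cells were shallow, with 1802 to 3498 UMIs. Each of the 5 carried Pglyrp1 and had 0 or 1 Camp UMI. S100a8 and S100a9 made up 11.2% and 26.7% of UMIs in the 2 dexamethasone cells and 1.66 to 9.29% in the 3 control cells.

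Markers of other cells were low with a few exceptions. Over all members, the MHC class II list had 7 UMIs in dexamethasone cells and 1 in control cells, basophil and mast cell genes 0 and 1, eosinophil genes 1 and 3, T and NK cell genes 10 and 3, and B cell genes 9 and 10. Neuron and glia genes had 2 and 8 UMIs and endothelial genes 3 and 3. Erythroid genes stood at 228 and 345 CPM, against 27306 and 25181 CPM in all other kept cells. Platelet genes had 3 UMIs in the dexamethasone members and 49 in the control members, of which 46 came from 1 control Fn1/Fcnb cell. The 4 microglia genes measured over all members were all lower in the dexamethasone library, 3 of them past 2-fold. Of all genes measured, 2.0% were at least 2-fold lower. With C1q under 0.4%, 2 microglia genes were measured, both lower and neither past 2-fold, while 1.44% of all genes were at least 2-fold lower. The microglia list stood at 224 CPM in the dexamethasone and 14611 CPM in the control Camp-rich cells, and 56.6% of the control UMIs came from 1 cell.

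Beside this, 2 of the 7 control Camp-rich cells had C1q shares of 0.585% and 0.599%, 18814 and 24212 UMIs, and 3909 and 4204 genes. All other Camp-rich cells had at most 18415 UMIs, 2122 genes and 0.102% C1q. Cst3, a microglia-rich gene, stood at 149 CPM in dexamethasone and 12326 CPM in control Camp-rich cells, and at 149 and 393 CPM without these 2 cells. Whether either holds RNA of more than 1 cell was not tested. Several ratios of Camp-rich cells moved or turned without them, and values below are given also for members with C1q under 0.4%, which leaves out these 2, 1 control Fn1/Fcnb cell and 1 dexamethasone Fn1/Fcnb cell.

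S100a8 and S100a9 made up far more of the RNA of Camp-rich cells than of Fn1/Fcnb cells. In Camp-rich cells their share of UMIs had its lowest, median and highest value at 32.7, 39.5 and 45.3% in the 9 dexamethasone cells and at 9.88, 22.6 and 35.1% in the 7 control cells. The ranges overlapped through 1 control cell, and without the 2 C1q-bearing cells the control range was 20.7 to 35.1%. In Fn1/Fcnb cells the values were 0.0984, 2.83 and 15.5% for dexamethasone cells and 0.203, 1.65 and 13% for control cells, ranges that overlap almost wholly.

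**Figure D2:**
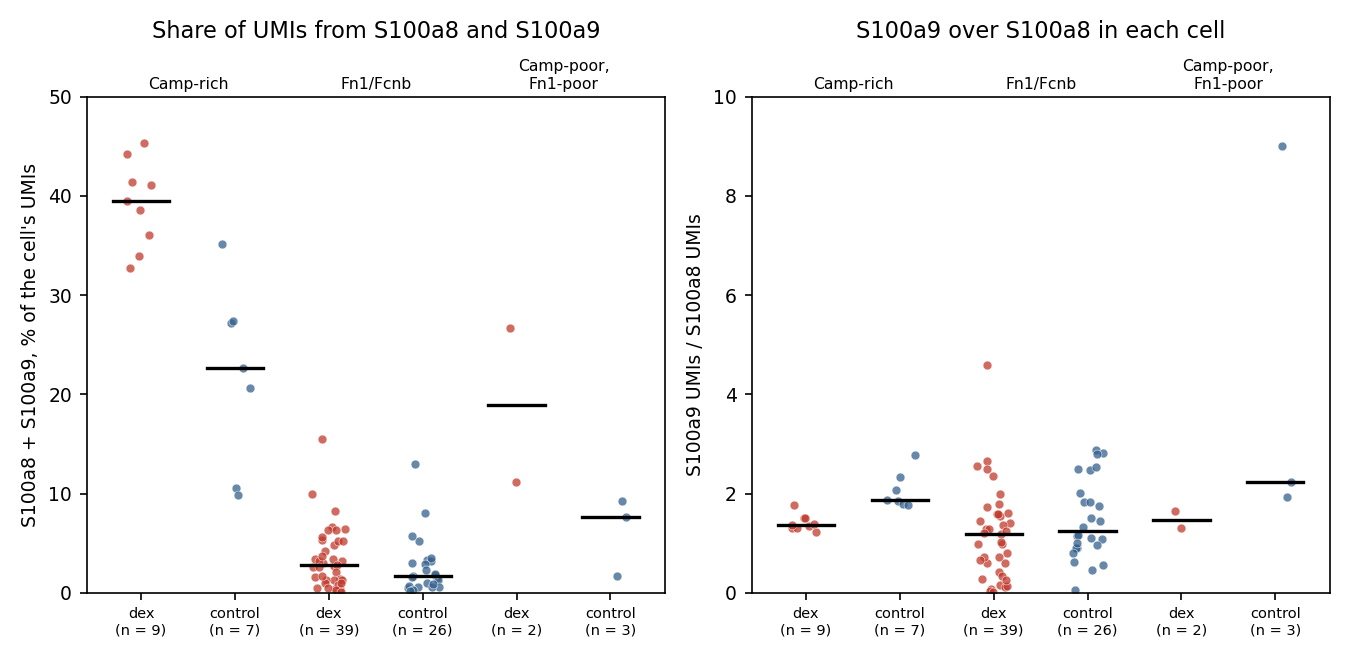
Left, S100a8 plus S100a9 as a percentage of each member's UMIs; right, S100a9 UMIs divided by S100a8 UMIs in each member; 1 point per cell, dexamethasone cells left of control cells for each kind, with a black bar at the median. In Camp-rich cells the dexamethasone points lie at 32.7 to 45.3% on the left and at ratios of 1.23 to 1.77 on the right, against 9.88 to 35.1% and 1.77 to 2.77 in control cells.

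Summed over all members, S100a8 stood at 47361 CPM in dexamethasone cells, against 23798 CPM in control cells, a log2 ratio of 0.99 (0.96 to 1.03). S100a9 stood at 63747 and 44534 CPM, a log2 ratio of 0.52 (0.49 to 0.54). Both genes helped to choose the cells, so these values are a description. In Camp-rich cells alone the log2 ratio was 1.35 for S100a8 and 0.82 for S100a9, and with C1q under 0.4% 0.81 and 0.30. In Fn1/Fcnb cells it was 0.64 and 0.27. S100a8 thus differed more between the libraries than S100a9 did in both kinds of cell. The ratio of S100a9 to S100a8 UMIs in single Camp-rich cells had its lowest, median and highest value at 1.23, 1.37 and 1.77 in the 9 dexamethasone cells and at 1.77, 1.87 and 2.77 in the 7 control cells. The ranges met at 1.77 but did not overlap. In Fn1/Fcnb cells the ranges were 0.0233 to 4.60 and 0.0526 to 2.87, with medians of 1.18 and 1.24.

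Because S100a8 and S100a9 chose the members, the cells with Fn1 and Fcnb were also counted whatever their S100 level. This count, added after the values were seen, took kept cells with C1q under 0.8%, under 20 Camp UMIs, at least 20 Fn1 plus Fcnb UMIs and at least 1 Fn1 UMI. Such cells numbered 55 in the dexamethasone library (1.31% of kept cells, 0.988 to 1.70%) and 60 among controls (0.746%, 0.570 to 0.959%). Of them 38, or 69.1% (55.2 to 80.9%), and 25, or 41.7% (29.1 to 55.1%), had at least 20 S100a8 and S100a9 UMIs. Their median was 92 S100a8 and S100a9 UMIs in dexamethasone cells and 11.5 in control cells, at median depths of 10626 and 9039 UMIs, and single cells ranged from 0 to 2572 and from 0 to 893. S100a8 stood at 10319 and 4022 CPM and S100a9 at 12649 and 6251 CPM. So the S100 minimum let in a larger part of the dexamethasone than of the control cells with Fn1 and Fcnb. Without it the share of kept cells still was higher in the dexamethasone library, by 0.564 percentage points.

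Free RNA was not measured directly, and the levels in cells outside the members are given instead. In C1q-rich cells with under 20 S100a8 and S100a9 UMIs, S100a8 stood at 6.14 CPM (dexamethasone) and 2.55 CPM (control), and S100a9 at 4.49 and 2.71 CPM. In globin-rich cells, which should lack both, S100a8 stood at 1.5 and 0.735 CPM. In the remaining cells outside the members, with C1q under 0.8% and globin under 10% of UMIs, S100a8 stood at 48.1 and 20.9 CPM. In all other kept cells together, S100a8 stood at 74.5 and 5.0 CPM, and 77.8% of the dexamethasone UMIs came from the 1 cell with 4839 S100a8 and S100a9 UMIs.

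In the whole set of members, 38 of 2202 genes with at least 50 UMIs were at least 2-fold higher in the dexamethasone library, or 1.73%, and 44 were at least 2-fold lower, or 2.0%. In Camp-rich cells these shares were 5.70% and 17.9% of 351 genes, and in Fn1/Fcnb cells 1.73% and 0.867% of 1846. With C1q under 0.4% they were 1.88% and 1.44% of 2018 genes in the members and 11.2% and 4.02% of 249 in Camp-rich cells. On the Camp/Fcnb side they were 2.57% and 3.95% of 1671 genes and on the other side 3.66% and 2.01% of 546. The median log2 ratio over all genes measured was -0.07 in members, -0.26 in Camp-rich cells and -0.03 in Fn1/Fcnb cells. With C1q under 0.4% these medians were -0.09, 0.12 and -0.03, so that of Camp-rich cells turned. A CPM is a share of all UMIs, so a gene's CPM also depends on how much S100a8 and S100a9 take up. What this does to the medians was not tested.

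Defensin transcripts were far more abundant in the dexamethasone members, and came from few cells. RatNP-3b had 2042 UMIs in the dexamethasone members and 8 in the control members, or 3576 and 22.8 CPM, a log2 ratio of 7.29 (6.31 to 8.51). Of these, 1248 and 770 UMIs came from 2 dexamethasone Camp-rich cells, which also had 608 and 129 Np4 UMIs. Defa5 had 195 UMIs in the dexamethasone members, 188 of them in the first of these cells, and 0 in the control members. Without that cell, and the control cell with most, the log2 ratio of Defa5 was 0.51 against the floor of 3 counts, and that of RatNP-3b 7.34. For RatNP-3b too this leaves the control members at 0 and the ratio against the floor, and 770 of the remaining dexamethasone UMIs came from 1 cell. The remaining 7 dexamethasone Camp-rich cells had 0 to 11 RatNP-3b UMIs, and 6 of the 7 control Camp-rich cells had none. A dexamethasone Fn1/Fcnb cell, which also had 21 Mki67 UMIs, held 105 Np4 UMIs. Alpha-defensin genes are near-copies of each other, so reads may be split among them.

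Ngp and the stefins ran the other way. Ngp had 27 UMIs in the dexamethasone and 363 in the control members, or 47.3 and 1034 CPM, a log2 ratio of -4.45 (-5.07 to -3.89). In the control, 146 and 201 UMIs came from 2 of 7 Camp-rich cells, and neither was a C1q-bearing cell. With the C1q limit at 1.6% the log2 ratio of Ngp was -3.31. Stfa2 was present in all 7 control Camp-rich cells at 63, 129 and 236 UMIs as lowest, median and highest, against 0, 8 and 136 in the 9 dexamethasone cells, ranges that overlap. Its log2 ratio over all members was -2.20 (-2.38 to -2.02), at 608 and 2789 CPM. Stfa2l1 stood at 40.3 and 843 CPM, with 0 to 19 UMIs in dexamethasone and 0 to 113 in control Camp-rich cells. The log2 ratio of Stfa2l1 was -4.39, and -6.28 without the cell with most Stfa2l1 in each library. The dexamethasone cell left out held 82.6% of the Stfa2l1 UMIs of its Camp-rich cells, so the second ratio rests on few UMIs. Stfa3 differed less, with a log2 ratio of -0.77 (-0.90 to -0.64). Stefin A genes also have close copies.

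Within the Camp-rich cells, the cells with most defensin RNA lacked the matrix proteases. The 2 dexamethasone cells with 770 or more RatNP-3b UMIs had 0 Mmp8 and 0 Mmp9 UMIs. The control cell with the most RatNP-3b, 8 UMIs, had 146 Ngp, 725 Camp and 0 Mmp8 UMIs. Mmp8, a collagenase, had 7 to 62 UMIs in 6 dexamethasone cells and 21 to 41 in 6 control cells, and 1 of these dexamethasone cells held 29 Mmp8 and 6 RatNP-3b UMIs. Camp tended to be lower where Mmp8 was higher: Spearman's rho between the genes' shares of UMIs was -0.66 over 9 dexamethasone cells and -0.50 over 7 control cells, the cells of each value coming from 1 library. With so few cells this is a description. Camp itself had 134, 254 and 817 UMIs as lowest, median and highest in dexamethasone cells and 23, 231 and 725 in control cells. Its summed level in Camp-rich cells was 28725 and 22277 CPM, a log2 ratio of 0.37 (0.29 to 0.45) that turned to -0.27 with C1q under 0.4%.

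**Figure D3:**
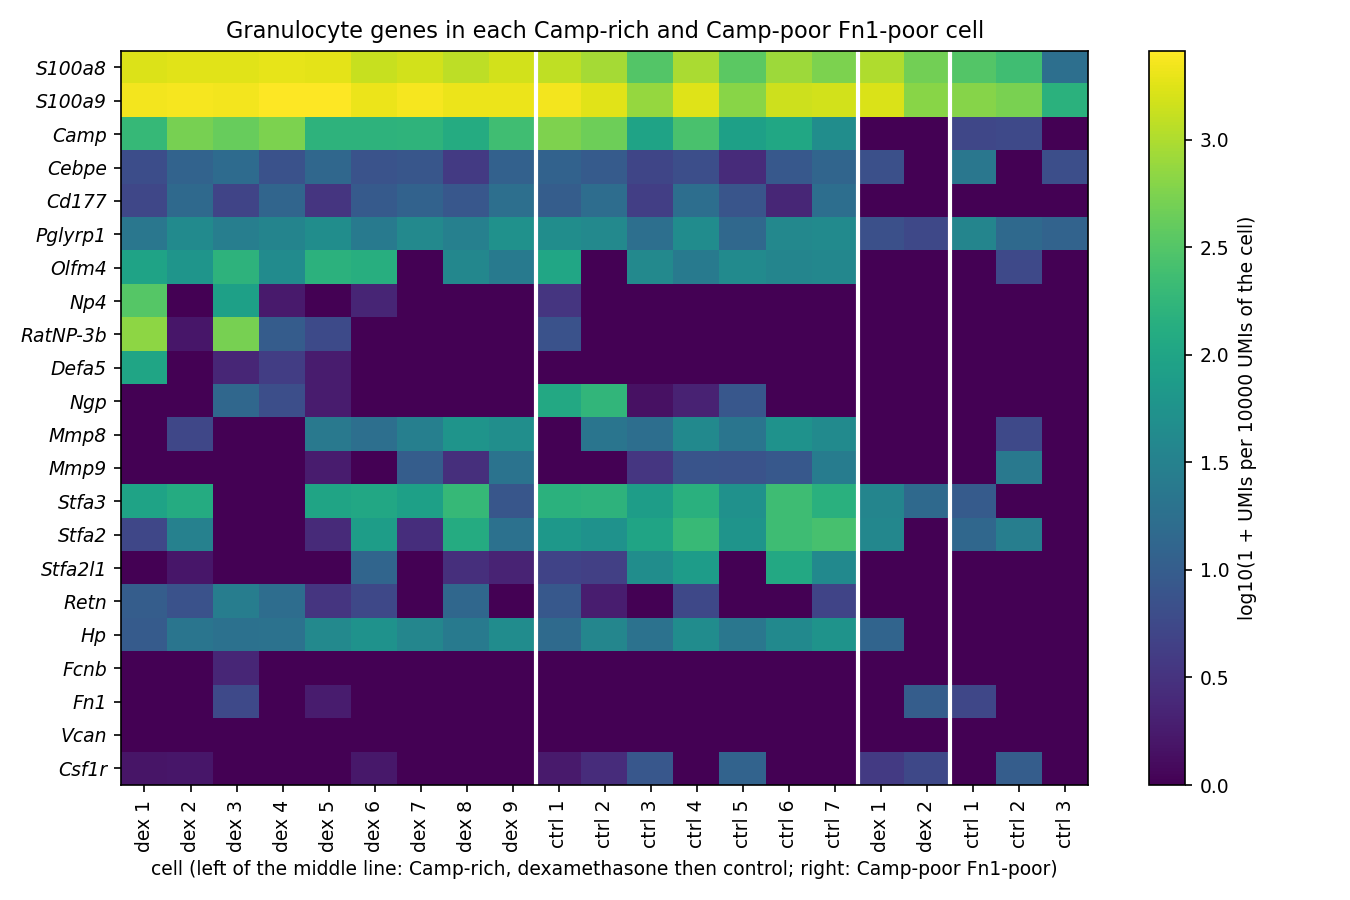
Each column is 1 cell and each row 1 gene, coloured by log10 of 1 plus UMIs per 10000 UMIs of the cell; from left, 9 dexamethasone and 7 control Camp-rich cells, then 2 dexamethasone and 3 control Camp-poor Fn1-poor cells. Np4 and RatNP-3b are bright in dexamethasone cells 1 and 3, Ngp in control cells 1 and 2, and Mmp8 is dark in all 4 of these except control cell 2, which has 23 Mmp8 UMIs.

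Among other granule genes, Olfm4 stood at 8595 CPM in dexamethasone and 4210 CPM in control Camp-rich cells, a log2 ratio of 1.03 (0.86 to 1.20) and of 0.98 with C1q under 0.4%, with 0 to 238 and 0 to 134 UMIs in single cells. Retn, which encodes resistin, stood at 922 and 191 CPM there, a log2 ratio of 2.27 (1.52 to 3.10), and had a UMI in 7 of 9 and 4 of 7 cells. With C1q under 0.4% Retn stood at 922 and 371 CPM, a ratio of 1.31 (0.57 to 2.14). Hp (haptoglobin) stood at 2790 and 2713 CPM, and at 2790 and 3405 CPM under that limit, and Pglyrp1 had medians of 43 and 39 UMIs. Mmp9 had a UMI in 4 of 9 and 5 of 7 cells. Over all members, 6 of 12 measured specific granule genes were higher and the others lower, their median log2 ratio lying at -0.00, against -0.07 over all genes. In Camp-rich cells 9 of 11 were higher and 2 lower, with a median of 0.37, against -0.26 over all genes there. This count turned without the 2 C1q-bearing control cells: 3 of 10 were then higher and 7 lower, with a median of -0.28, against 0.12 over all genes. Camp, Hp, Pglyrp1, Cd177 and Chi3l1 turned lower, and Lcn2 no longer had 50 UMIs. Among 13 measured mature neutrophil genes, the stefins included, 4 were higher and 9 lower over all members. Their median was -0.48, against -0.07 over all genes. Past 2-fold over all members were 0 specific granule genes higher and 1 lower, and 1 mature neutrophil gene higher and 3 lower. Of all genes, 1.73% were at least 2-fold higher and 2.0% lower. With C1q under 0.4% the list counts were 2 higher and 1 lower, and 0 higher and 3 lower. Of all genes, 1.88% were then at least 2-fold higher and 1.44% lower. Serpinb1a, a protease inhibitor of neutrophils, stood at 1706 and 1216 CPM over all members.

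In Fn1/Fcnb cells, Vcan was more than 2-fold lower in the dexamethasone library while Fn1 differed little. Vcan had 0, 5 and 56 UMIs as lowest, median and highest in the 39 dexamethasone cells and 0, 15.5 and 45 in the 26 control cells, and 31 and 25 cells carried it. The ranges overlap, and the dexamethasone median lay below the control median. Its level was 730 CPM (653 to 814) and 1884 CPM (1719 to 2060), a log2 ratio of -1.37 (-1.57 to -1.16). In all other kept cells it was also lower in the dexamethasone library, at 3.29 and 6.07 CPM. Those other cells include cells with Fn1 and Fcnb that missed the S100 minimum, and how much Vcan came from them was not tested. As counted above, that minimum let in 69.1% of dexamethasone and 41.7% of control cells with Fn1 and Fcnb. What this does to the Vcan ratio was not tested. Fn1 itself stood at 3906 and 4021 CPM, with 3, 51 and 92 UMIs in dexamethasone cells and 11, 40 and 88 in control cells, and Fcnb at 5639 and 7445 CPM, with 3, 48 and 287 UMIs and 0, 59 and 309. Lyz2, the lysozyme of macrophages and monocytes, stood at 40352 and 38731 CPM. Plac8 was at 6740 and 7030 CPM, and S100a6 at 8444 and 8750 CPM. These 5 genes had log2 ratios between -0.40 and 0.06.

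Smaller counts set several other genes apart. Ahnak stood at 438 and 700 CPM in Fn1/Fcnb cells, a log2 ratio of -0.67 (-0.97 to -0.37). Zfp36, which encodes the mRNA decay factor tristetraprolin, stood at 175 and 78.2 CPM, a ratio of 1.17 (0.44 to 1.95), and had a UMI in 27 of 39 and 12 of 26 cells. Il1r2, the decoy receptor for interleukin 1, stood at 96.6 and 23.4 CPM from 43 and 6 UMIs, in 19 and 5 cells, with 32.6% of the dexamethasone UMIs in 1 cell. In Camp-rich cells it stood at 149 and 214 CPM, a ratio of -0.52 (-1.53 to 0.49), and over all members at a ratio of 0.35 (-0.31 to 1.03). Cxcr4, the chemokine receptor that holds leukocytes in marrow, stood at 119 and 58.6 CPM, a ratio of 1.02 (0.17 to 1.96). Over all members Cxcr4 had a log2 ratio of 0.90, and of -0.69 after every cell was thinned to 3600 UMIs. Among 17 measured monocyte genes in Fn1/Fcnb cells, 8 were higher and 9 lower, and the median ratio was -0.04, against -0.03 over all genes. In each direction 1 was past 2-fold, while of all genes there 1.73% were at least 2-fold higher and 0.867% lower.

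**Figure D4:**
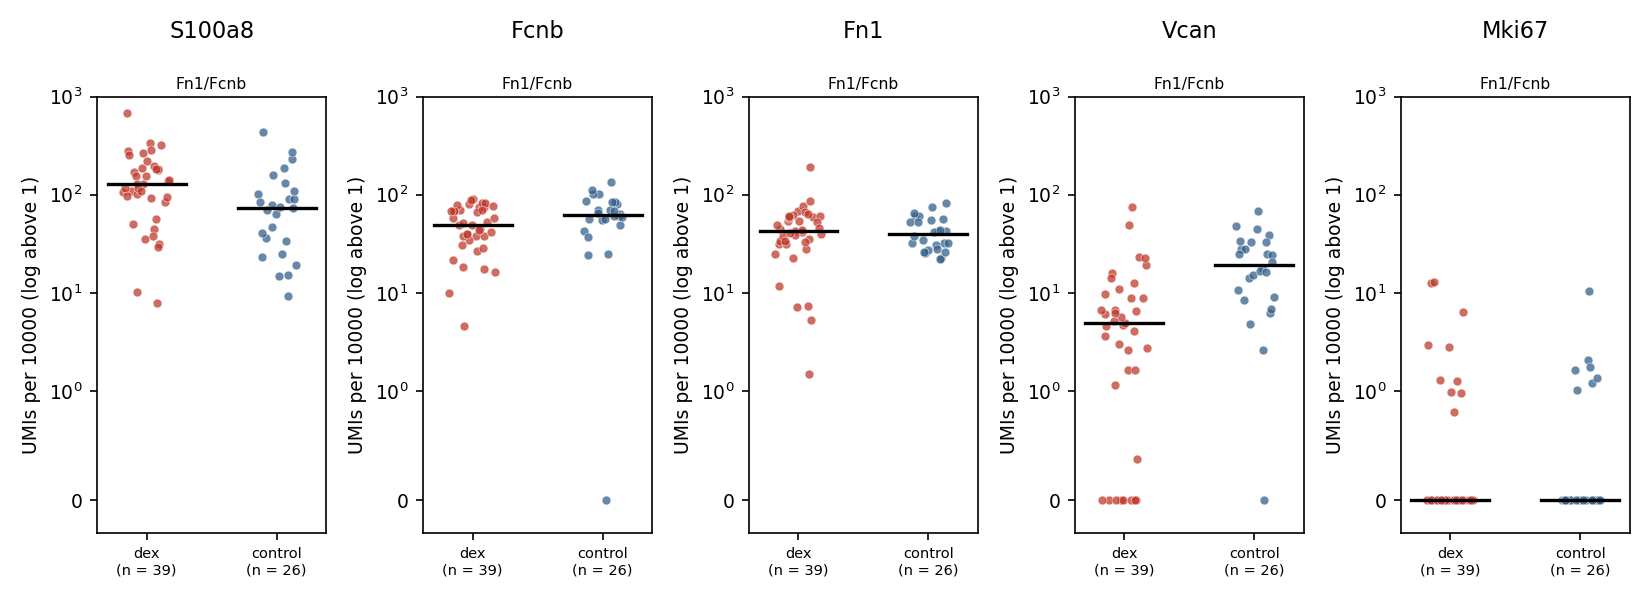
UMIs per 10000 UMIs of the cell for S100a8, Fcnb, Fn1, Vcan and Mki67 in each Fn1/Fcnb cell, 39 dexamethasone cells left of 26 control cells, on an axis that is logarithmic above 1 and linear below, with a black bar at the median. The Vcan median is 4.95 in dexamethasone and 19.1 in control cells, while for Fn1 the medians are 42.9 and 40.0.

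A few Fn1/Fcnb cells carried genes of dividing cells. At least 5 UMIs of Mki67, a marker of cycling cells, were found in 4 dexamethasone cells, with 16638 to 32322 UMIs each, and in 1 control cell with 22762 UMIs. The 4 dexamethasone cells held 0 to 6 Vcan UMIs and the control cell 6. Among the other 35 and 25 cells the Vcan median was 5 and 17 UMIs. Pttg1, of sister chromatid separation, Cenpf, of the kinetochore, and the histone gene Hist1h2an (ENSRNOG00000057700, a symbol that several rows share) were among the 10 highest log2 ratios of all members, at 1.42, 1.16 and 4.47, and 88.9% of the control Cenpf UMIs in Fn1/Fcnb cells came from 1 cell. Without the cell with most UMIs in each library, Pttg1 and Cenpf were at 3.05 and 3.50. For Cenpf this leaves few control UMIs, and neither larger ratio is read as a stronger difference. A single dexamethasone cell held 58.3% of the Hist1h2an UMIs.

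Of the 10 highest ratios of the members, that of RatNP-3b is given above. Np4, Defa5, Retn and Zfp36 are also among them, but are given above by counts or for 1 kind of cell. With C1q under 0.4% their ratios over all members were 6.49, 5.11, 1.72 and 1.20, that of Defa5 against the floor. Ppial4d and H2aj stood at 110 and 39.9 CPM and at 201 and 76.9 CPM, log2 ratios of 1.47 and 1.39. In all other kept cells their ratios were 1.36 and 1.06, so both were higher in the dexamethasone library outside the members too, and both have close copies in the genome. The 10 lowest were Lyve1, Ngp, Stfa2l1, Sparc, Atp1b1, Trem2, Cst3, Tmem176b, Stfa2 and Tmem176a. Lyve1 marks border macrophages and Sparc, Trem2 and Cst3 are rich in microglia. Cst3, cystatin C, stood at 781 and 3914 CPM in all members, a log2 ratio of -2.33 (-2.48 to -2.17), and at 685 and 934 CPM, a ratio of -0.45, with C1q under 0.4%. Sparc had 7 and 70 UMIs in all members, and 2 and 8 with C1q under 0.4%. Trem2 had 11 and 56, and 6 and 13.

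Of 11 measured genes known to respond to glucocorticoids, 8 were higher and 3 lower in dexamethasone members. Their median ratio was 0.25, against -0.07 over all genes. Past 2-fold were 2, Zfp36 and Mt1, both higher, while 1.73% of all genes measured were at least 2-fold higher. With C1q under 0.4%, 7 of 10 were higher and 3 lower, and the median was 0.13, against -0.09 over all genes. Zfp36 alone was then past 2-fold, Mt1 being at 0.93, while 1.88% of all genes were at least 2-fold higher. In Camp-rich cells the list's median was 0.33 over 4 genes, and -0.07 over 2 with C1q under 0.4%. In Fn1/Fcnb cells it was 0.15 and 0.16, over 9 genes each. Over all members Mt1, a metallothionein, stood at 177 and 85.5 CPM, a ratio of 1.05 (0.45 to 1.69) and of 0.62 after thinning. In all other kept cells Mt1 stood at 149 and 106 CPM. Anxa1, the phospholipid-binding annexin A1, stood at 3063 and 2211 CPM, a ratio of 0.47 (0.35 to 0.59). It had 100 to 227 UMIs in dexamethasone and 23 to 154 in control Camp-rich cells, ranges that overlap. Tsc22d3, which encodes the glucocorticoid-induced leucine zipper, had 52 and 39 UMIs, a log2 ratio of -0.29, and Fkbp5, a co-chaperone of the glucocorticoid receptor, had 22 and 14. In genes of the NADPH oxidase, which makes the oxidative burst, 3 of 5 were higher and 2 lower, none past 2-fold: Cyba stood at 1993 and 2222 CPM and Cybb at 890 and 781 CPM. Of 7 inflammatory genes 2 were higher and 5 lower, none past 2-fold. Of 3 type I interferon genes 2 were higher and 1 lower. The medians of the NADPH oxidase, inflammatory and interferon lists were 0.19, -0.18 and 0.12, against -0.07 over all genes. Of all genes measured in the members, 1.73% were at least 2-fold higher and 2.0% lower.

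**Figure D5:**
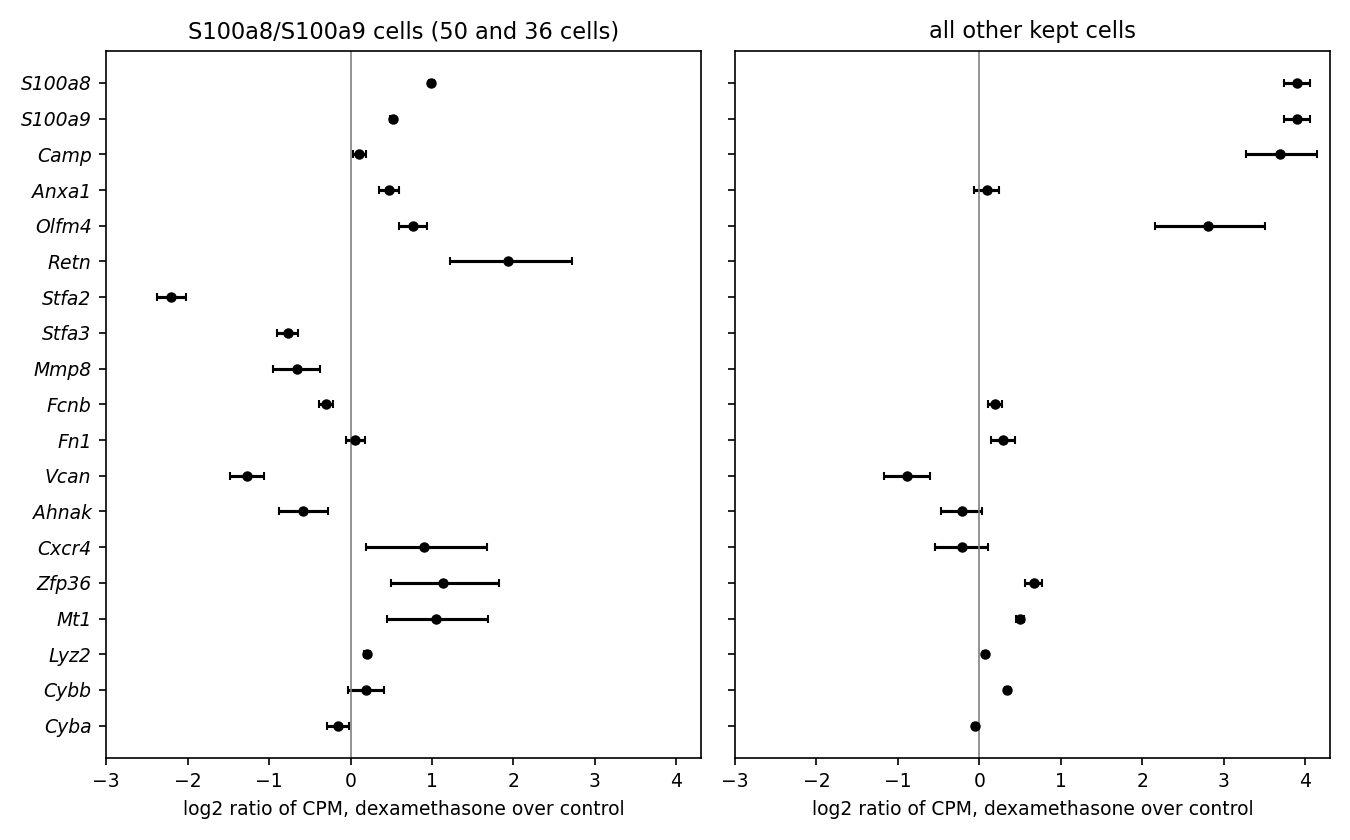
Log2 ratio of CPM, dexamethasone over control, for a selection of the named genes in the 86 members (left) and in all other kept cells (right), with exact 95% counting intervals; a gene with under 20 UMIs in either library is not drawn in the right panel. Several genes with ratios further from 0, among them RatNP-3b, Ngp and Cst3, are not drawn. Stfa2 is drawn at -2.20 and Vcan at -1.27 on the left; on the right, the high S100a8, S100a9 and Camp ratios rest largely on 1 dexamethasone cell over the C1q limit.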

How the data were processed

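Single-cell RNA-seq of 2 libraries was used, 1 of dexamethasone-exposed and 1 of unexposed male embryos, with 7 embryos pooled in each. The deposited values are raw UMI counts per gene and barcode, made with Cell Ranger 7.0.0 against Rnor_6.0, per the submitters' processing notes, for 32623 genes. The labels say that microglia were isolated by flow cytometry, and the antibodies are not given in the sources used here. The gate sets which of the cells described here were seen.

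Cells were kept with at least 200 genes and at most 20% mitochondrial UMIs. For each kind of cell and library, UMI counts were added up and divided by their total to give CPM, and log2 ratios are dexamethasone over control. With 1 library per group there was no replicate and no test. Intervals are exact Poisson for a CPM, Clopper-Pearson for a share and conditional binomial for a ratio, at 95%. A gene counts as measured if the libraries together held 50 UMIs or more, is called past 2-fold at an absolute log2 ratio of 1, and a library at 0 stands at a floor of 3 counts over the cells summed. The members, the 30 gene lists and the rules were chosen with earlier results of these data known. Of 465 list entries, 22 were not matched to a symbol and are not used here. The division into Camp-rich, Fn1/Fcnb and other cells and several genes named for single cells were chosen after their values were seen.

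Genes were named by a rule: S100a8, S100a9, Camp, Fcnb, Fn1, RT1-Db1 and Cd74; the 10 highest and 10 lowest ratios among symbols with 50 UMIs or more, 100 CPM or more in a library, and 1 direction on every side that had 20 or more cells per library; the 12 genes of largest fold of each side; and from each list the 2 of highest CPM and the 2 of largest ratio. The leading genes of the second division were taken by the same rule, and not every gene the rule takes is printed. Alternatives changed the cell filter, the S100 and C1q limits, shared barcodes, depth (thinning to 3600 UMIs), the weighting of cells and the minimum of UMIs. The ratio and its interval were checked on simulated data. Python 3.11.15, numpy 2.4.6, scipy 1.17.1 and pandas 2.3.3 were used.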

Additional observations from a re-analysis of the deposited data

How the results depend on the processing

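No paired analysis was possible because each group holds 1 library, and for the same reason no replicate could be left out. The difference in the share of kept cells that are S100a8/S100a9 cells was 0.724 to 0.775 percentage points under other limits and filters. Counts of genes past 2-fold moved with depth and with the number of genes measured. Thinning to 3600 UMIs left out 3 dexamethasone and 4 control cells. The counts were then 34 in members, 31 on the Camp/Fcnb side, 14 on the other side, 18 in Camp-rich and 16 in Fn1/Fcnb cells. With at least 200 UMIs they were 22, 26, 7, 25 and 8. The main counts were 82, 109, 31, 83 and 48, of 2202, 1671, 546, 351 and 1846 genes. Fewer genes were measured under each alternative, so the counts alone do not show whether the share past 2-fold changed. With C1q below 0.4% the count was 72 on the Camp/Fcnb side and 38 in Camp-rich cells, and 28 of these 38 were higher and 10 lower, against 20 higher and 63 lower with all cells. Under that limit the log2 ratios of Apoe and Tmem176a turned to 0.10 and 0.31. The median of border-associated macrophage genes turned to 0.27, over the 2 still measured. This limit removes the 2 C1q-bearing control Camp-rich cells. Depth limits the 5 Camp-poor Fn1-poor cells most, at 1802 to 3498 UMIs, and a handful of cells carries the values of RatNP-3b, Np4, Defa5 and Ngp.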
